A study of Mus musculus with 2 samples.

Results

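The genes described here encode the proteins of the cytosolic ribosome. They were taken by name from the mouse gene annotation GENCODE M21: protein-coding genes on chromosomes 1 to 19 whose symbol is Rpl or Rps followed by a digit, together with Rplp0, Rplp1, Rplp2 and Rpsa, and without the S6 kinases. The rule found 88 of 20807 protein-coding genes on these chromosomes. Of the 88, 73 are the canonical genes of the large (43) and small (30) subunit, 7 are paralogues (Rpl3l, Rpl7l1, Rpl10l, Rpl22l1, Rpl36al, Rpl39l and Rps27l), 7 are annotated retrocopies, and 1, Rps19bp1, encodes a protein that binds ribosomal protein S19 and is itself no ribosomal protein. The naming rule uses no measured value, but the set was proposed with earlier results of these data known.

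The measurement is chromatin immunoprecipitation and sequencing (ChIP-seq) of CTCF in the whole heart of B6NCrl mice at postnatal day 0, with no treatment or engineered allele in the labels. There is 1 group of 2 libraries, replicate 1 and replicate 2, and so no contrast between conditions. Both libraries carry the same tissue sample and donor in the labels, so an SD over them may hold technical spread alone and does not describe the spread between animals. Peak lists hold no expression values, so the tissue label could not be checked against marker genes, and read depth is not given in them, so counting error on a signal is unknown.

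CTCF is a zinc finger protein that binds a long DNA motif, insulates enhancers from promoters and, together with cohesin, anchors chromatin loops. Many of its sites lie near the starts of active genes. Ribosomal protein genes are transcribed strongly in nearly every cell, and growing heart muscle needs large numbers of ribosomes. Their messengers typically begin with a cytosine followed by a run of pyrimidines, the 5' TOP sequence through which mTOR signalling controls their translation, and several of the genes carry small nucleolar RNAs in their introns.

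Strong CTCF peaks stood directly before the starts of genes of the large subunit, and the sequences of 7 of them are shown because the motif and the gene start lie within 200 bp of each other. Each line runs 5' to 3' on the strand of the gene, from 20 bases before the best match to the 14-base CTCF core consensus to the last base before the annotated 5' end of the gene. Capitals mark the core match.
Rpl5: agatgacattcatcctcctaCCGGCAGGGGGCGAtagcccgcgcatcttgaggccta
Rplp0: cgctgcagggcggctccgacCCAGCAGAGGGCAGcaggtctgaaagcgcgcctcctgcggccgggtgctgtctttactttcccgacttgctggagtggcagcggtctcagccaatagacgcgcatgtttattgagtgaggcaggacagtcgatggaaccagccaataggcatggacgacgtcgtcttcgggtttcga
Rpl26: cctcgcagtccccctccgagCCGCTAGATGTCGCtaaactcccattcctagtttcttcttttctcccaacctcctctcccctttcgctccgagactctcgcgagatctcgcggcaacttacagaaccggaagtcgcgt
Rpl36: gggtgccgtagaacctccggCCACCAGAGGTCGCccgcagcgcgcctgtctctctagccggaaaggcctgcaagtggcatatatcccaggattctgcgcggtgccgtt
Rpl38: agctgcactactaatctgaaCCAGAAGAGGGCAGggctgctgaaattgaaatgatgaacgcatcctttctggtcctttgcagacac
Rpl27: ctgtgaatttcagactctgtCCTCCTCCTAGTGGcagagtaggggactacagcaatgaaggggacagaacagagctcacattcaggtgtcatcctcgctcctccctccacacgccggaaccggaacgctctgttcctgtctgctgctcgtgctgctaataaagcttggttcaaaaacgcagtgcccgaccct
Rpl11: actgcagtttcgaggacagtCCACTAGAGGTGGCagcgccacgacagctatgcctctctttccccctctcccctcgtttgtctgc

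In the mouse genome GRCm38 (mm10) these stretches lie at chr5:107900445-107900501 (Rpl5, plus strand), chr5:115559270-115559466 (Rplp0, plus), chr11:68901445-68901582 (Rpl26, plus), chr17:56613308-56613415 (Rpl36, plus), chr11:114668438-114668523 (Rpl38, plus), chr11:101442106-101442297 (Rpl27, plus) and chr4:136053429-136053513 (Rpl11, minus). All of them are upstream of the gene and overlap no annotated exon. The core of Rplp0 matched the consensus with 0 mismatches, those of Rpl36 and Rpl38 with 1, and those of Rpl5, Rpl26, Rpl27 and Rpl11 with 2. In 6 of these 7 genes the core read in the direction of transcription, and in Rpl27 it read against it. Among all protein-coding genes with such a core at a peak 1 to 200 bp upstream, 70.1% (509 of 726) had it in the direction of transcription. Among all ribosomal protein genes of this kind the share was 77.8% (7 of 9), so the direction was near the background.

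Shorter stretches, the core with 8 bases on either side, show sites placed differently: across the start of Rps3a1 and some way upstream of Rps19. They lie at chr3:86142686-86142715 (minus strand, overlapping the first exon) and chr7:24883977-24884006 (plus).
Rps3a1: gaaacgagCCGCCAGCTAGTGTcgcgagat
Rps19: agactccgGCACTAGATGGCGGagctgaac

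CTCF peaks lay at the promoters of 29 of the 88 genes. This count takes the optimal list, the peaks the authors kept by their irreproducible discovery rate (IDR) analysis, with the summit within 1 kb of the gene's annotated 5' end. The share was 33.0% (95% exact binomial interval 23.3% to 43.8%), against a background of 21.9% of all protein-coding genes. Within 10 kb, 70 of the 88 genes (79.5%, interval 69.6% to 87.4%) had a summit, against 51.9% of all protein-coding genes. These intervals cover counting error only, and neighbouring genes can share a peak.

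The background differed with the base composition of the promoter. CpG-rich promoters, those with an observed over expected CpG ratio of at least 0.6 in the 300 bases from 250 before to 50 after the 5' end, made up 66 of the 88 genes (75.0%) and 45.5% of all protein-coding genes. Among CpG-rich promoters, 24 of 66 ribosomal protein genes (36.4%) had a summit within 1 kb, close to the 32.3% of all such genes. At 10 kb the shares were 52 of 66 (78.8%) and 63.1%. Among the 22 genes with CpG-poor promoters, 5 (22.7%) had a summit within 1 kb against 13.1% of all such genes, and 18 (81.8%) within 10 kb against 42.6%.

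All but 1 of the 29 promoter peaks belonged to canonical genes. They were found at 17 of 43 genes of the large subunit (39.5%) and 11 of 30 of the small subunit (36.7%). The exception, Rpl7l1, encodes a paralogue of ribosomal protein L7. None of the 7 retrocopies and not Rps19bp1 had a promoter peak. Whether reads from near-identical copies could be placed in the genome is not given in the sources used here, so the values of the retrocopies are uncertain.

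The promoter peaks of ribosomal protein genes were strong beside those of other genes. The signal, the authors' value for each peak on the alignments of both libraries together, had a median of 120.1 over the 29 genes (range 12.03 to 291), against 45.9 over the 4550 protein-coding genes with a promoter peak and 60.8 over all 44533 optimal peaks. Restricting both sides to CpG-rich promoters gave 111.3 for 24 ribosomal protein genes and 43.4 for 3062 genes. Of the 29 peaks, 22 (75.9%) lay above the median of all optimal peaks, against 42.5% of the promoter peaks of all protein-coding genes, and 9 (31.0%) fell in the strongest 10% of the list, against 9.49%. With 1 group no test of this difference was made, and values are given side by side.

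**Figure D1:**
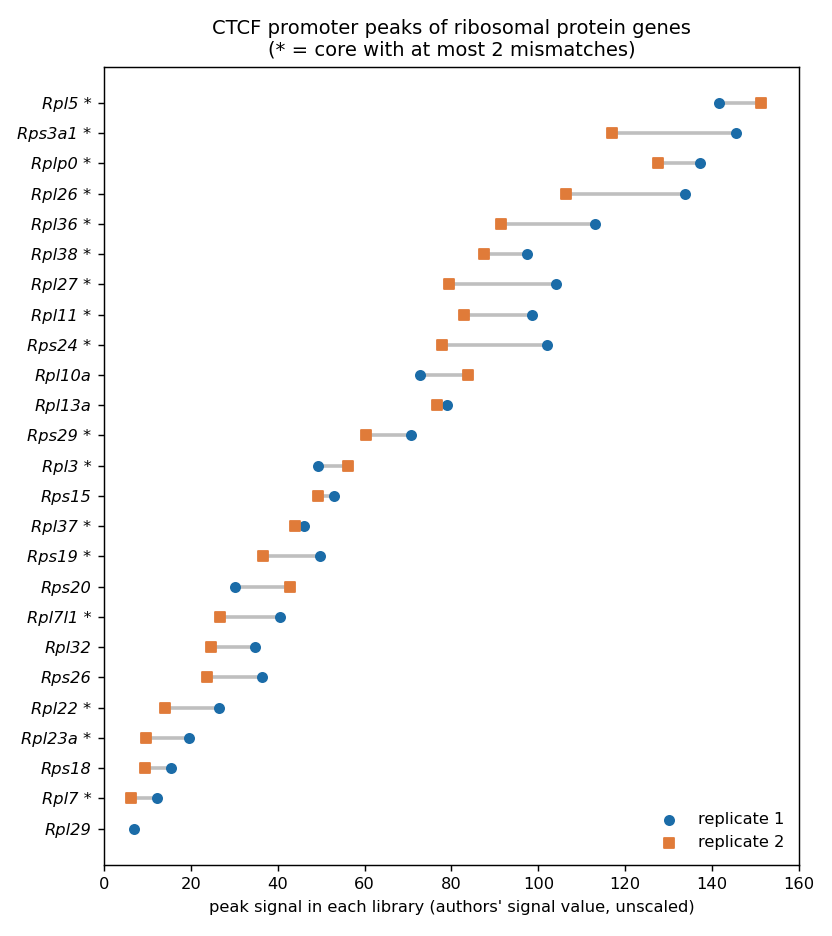
CTCF peak signal in replicate 1 (circles) and replicate 2 (squares) at 25 of the 29 ribosomal protein genes with an optimal summit within 1 kb of the 5' end, on the authors' unscaled signal value; the grey line joins the 2 libraries and an asterisk marks a core with at most 2 mismatches. The order from Rpl5 (141.5 and 151.2) down to Rpl29 (6.88, no matching peak in replicate 2) is that of the pooled signal, and replicate 2 is the higher library only at Rpl5, Rpl10a, Rpl3 and Rps20.

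Genes of the large subunit held the strongest promoter peak. Rpl5 and Rpl11 encode the proteins that bind 5S ribosomal RNA and, when free, bind Mdm2 and so stabilise p53. At Rpl5 the summit lay 19 bp upstream of the 5' end, with a signal of 141.5 in replicate 1 and 151.2 in replicate 2 (mean 146 ± 6.86, SD, n = 2). The pooled signal of 291.1 exceeded that of 99.6% of all optimal peaks. At Rpl11 the summit lay 62 bp upstream, with 98.5 and 82.8 (90.7 ± 11.1, n = 2). Both partners in binding this RNA carried a CTCF peak within 100 bp of the start. The signal was higher at Rpl5 in both libraries, which share a donor label, and the difference was not tested.

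Rplp0 encodes the base of the ribosomal stalk, the arm that recruits elongation factors, and Rplp1 and Rplp2 encode the acidic proteins bound to it. Rplp0 had a summit 157 bp upstream, with 137.3 in replicate 1 and 127.6 in replicate 2 (132.5 ± 6.90, n = 2), beside its core without mismatches. Rplp1 and Rplp2 had no summit within 1 kb. Their strongest peaks within 10 kb lay 7370 bp downstream of the 5' end of Rplp1 (36.1 and 35.5 in replicates 1 and 2) and 6596 bp upstream of that of Rplp2 (69.9 and 74.5), the latter in a coding exon of the neighbouring gene Pidd1. Only the base of the stalk therefore had a promoter peak among these 3 genes.

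Other genes of the large subunit had strong promoter peaks as well. Rpl26, mutated in some families with Diamond-Blackfan anaemia, had 133.8 and 106.4 in replicates 1 and 2 (120.1 ± 19.4, n = 2) at 113 bp upstream. Rpl36 had 113.0 and 91.3 (102.1 ± 15.3, n = 2) at 75 bp upstream. Rpl38, whose loss alters the axial skeleton of the mouse through translation of Hox messengers, was the only gene with 3 summits within 1 kb. Its strongest, 53 bp upstream, had 97.3 and 87.5 (92.4 ± 6.92, n = 2). Rpl27 had 104.1 and 79.5 (91.8 ± 17.4, n = 2) at 154 bp upstream. In these 4 genes replicate 1 was the higher library, and a core with at most 2 mismatches lay near the summit.

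Rpl10a and Rpl13a lacked such a core. Rpl10a had 72.8 in replicate 1 and 83.9 in replicate 2 (78.4 ± 7.80, n = 2) at 11 bp upstream. Rpl13a, whose protein can leave the ribosome to repress inflammatory messengers, had 79.1 and 76.6 (77.8 ± 1.77, n = 2) at 334 bp upstream. The best match near both summits had 3 mismatches.

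The remaining promoter peaks of the large subunit were weaker and lay more than 200 bp from the start. Rpl37 had 46.0 and 43.9 in replicates 1 and 2 at 308 bp upstream, and Rpl32 had 34.8 and 24.7 at 322 bp upstream. Rpl22, whose protein is needed for the development of one lineage of T cells, had 26.5 and 14.01 at 549 bp downstream. Rpl23a had 19.5 and 9.54 at 368 bp downstream, nearer to the start of the small nucleolar RNA gene Snord42b than to its own. Rpl7 had 12.2 and 6.24 at 517 bp upstream, and its paralogue Rpl7l1 had 40.4 and 26.6 at 535 bp upstream. Rpl29 had 6.88 in replicate 1 and no summit within 100 bp in the relaxed list of replicate 2. Replicate 1 was the higher library in all 6 of these genes with both values.

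In the small subunit the strongest promoter peak was at Rps3a1, which encodes protein S3a. Its summit lay 37 bp upstream, with 145.5 in replicate 1 and 117.0 in replicate 2 (131.3 ± 20.1, n = 2). The 5' end of another gene record, Gm37933, lies nearer to this summit. Rps24, Rps19 and Rps26 are mutated in Diamond-Blackfan anaemia, as are Rpl5 and Rpl11. The disease is named here only for genes with a promoter peak. Genes linked to it were not counted with and without a peak, so no tendency can be read from this. Rps24 had 102.0 and 77.8 (89.9 ± 17.2, n = 2) at 7 bp downstream. Rps19 had 49.7 and 36.6 (43.2 ± 9.31, n = 2) at 347 bp upstream, and Rps26 had 36.4 and 23.7 (30.03 ± 9.001, n = 2) at 165 bp upstream. The values of Rps24 in both libraries lay above those of Rps19 and Rps26, a difference that was not tested.

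Further peaks of the small subunit were of middle strength. Rps29 had 70.7 and 60.3 in replicates 1 and 2 at 579 bp upstream, closer to the start of the gene record Gm47295. Rps15 had 52.8 and 49.4 at 88 bp upstream, and Rps20 had 30.1 and 42.7 at 94 bp upstream. Neither Rps15 nor Rps20 had a core with at most 2 mismatches. Rps18 had 15.4 and 9.39 at 232 bp downstream, closer to the start of Vps52 than to that of its own gene record. Rps20 joined Rpl5, Rpl10a and Rpl3 as the genes whose signal was higher in replicate 2.

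The annotated 5' end of a gene record is not always the main start. In 10 of 88 genes the start of the principal (APPRIS) transcript lay more than 100 bp away. Rpl3, which encodes a large protein reaching towards the peptidyl transferase centre, is the clearest case: its record begins beside Syngr1, where the peak had 49.2 in replicate 1 and 56.2 in replicate 2. Its principal start lies 8462 bp downstream, and a weaker peak sat 61 bp downstream of that start, with 15.7 and 11.7 and a pooled signal of 26.2. The record of Rps24 starts 3593 bp upstream of the principal start, beside the divergent gene Polr3a, which encodes the catalytic subunit of RNA polymerase III, and no summit lay within 1 kb of the principal start. Conversely Rps14, the gene linked to the anaemia of the 5q- syndrome, and Rps2 gained a promoter peak. That of Rps14 lay 255 bp upstream of the principal start, with 56.1 and 61.3, and that of Rps2 lay 354 bp upstream, with 8.91 and 7.41. The summit of Rps18, downstream of the start of its gene record, lay 92 bp upstream of its principal start. With principal starts, 30 of 88 genes (34.1%) had a summit within 1 kb, against 21.9% of all protein-coding genes.

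Promoter summits lay mainly upstream. In 24 of 29 genes (82.8%) the summit was upstream of the annotated 5' end, against 58.2% of all protein-coding genes with a promoter peak, and in 27 of 30 with principal starts. The 200 bp just upstream held 14 of the 29 (48.3% against 31.2%). Counting any summit there, 15.9% of all 88 genes had one, against 7.23% of all protein-coding genes. The first 200 bp downstream held a summit for 1 gene, Rps24 (1.14% against 3.54%). The 14 peaks just upstream had a median signal of 184.3, and the other 15 had 67.0. For all protein-coding genes these medians were 68.5 and 39.6.

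**Figure D2:**
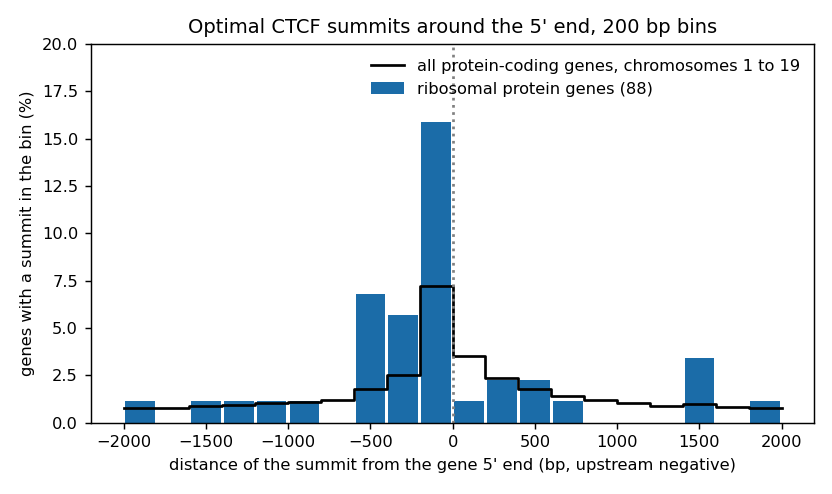
Share of genes (%) with at least 1 optimal summit in each 200 bp bin within 2 kb, against distance from the 5' end (negative is upstream), for the 88 ribosomal protein genes and for all protein-coding genes on chromosomes 1 to 19. The bin from 200 bp upstream to the start holds 15.9% of ribosomal protein genes and 7.23% of all genes, and the first 200 bp downstream hold 1.14% and 3.54%.

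Within 50 bp of the summit, 19 of 29 peaks (65.5%, interval 45.7% to 82.1%) had a core with at most 2 mismatches, against 49.3% of the promoter peaks of all protein-coding genes. With at most 1 mismatch the count was 7 of 29 (24.1% against 20.3%), and with at most 3 it was 25 of 29 (86.2% against 80.2%). Windows of the same size 1 kb to the left and to the right had a core in 1 and 0 of the 29. The median signal was 180.6 for the 19 peaks with a core and 66.3 for the 10 without, against 85.0 and 30.8 for all protein-coding genes. The 11 genes with the strongest promoter peaks, from Rpl5 to Rps24, all had a core. Cores read along the gene in 11 of 19 (57.9% against 58.4%), and 13 of 19 held a CpG dinucleotide (68.4% against 67.1%), so direction and CpG content were near the background.

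Within 10 kb but not within 1 kb, 41 genes (46.6%) had a summit. Of all protein-coding genes, 51.9% had a summit within 10 kb, a share that includes the 21.9% with one within 1 kb. The strongest peaks of the 41 genes ranged from 16.8 at the retrocopy Rps27rt to 260.1 at Rps21. Over all 70 genes with a summit within 10 kb, the strongest had a median signal of 140.4, against 90.4 for all protein-coding genes with one. Of these 70, 32 lay at a promoter (of this or another gene of any type), 20 between genes, 11 in introns, 5 in other exons and 2 in coding exons, and 55 (78.6%) had a core. The same places and core share over all protein-coding genes are not given here. Rps21 had the strongest of the peaks away from the start, 5917 bp upstream between genes, with 135.4 in replicate 1 and 125.3 in replicate 2 (130.3 ± 7.15, n = 2). For Rpl22 and Rps19 the distal peak was stronger than the one at the promoter: 132.1 and 127.1 at 7395 bp downstream of the Rpl22 start, and 127.5 and 122.8 at 6266 bp downstream of the Rps19 start. The distal values exceeded the promoter values of the same gene in both libraries.

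Further strong distal sites were found at Rpl29, Rpl37a and Rpl23a. At Rpl29 the site 7449 bp upstream had 131.0 in replicate 1 and 98.2 in replicate 2, far above the 6.88 of its promoter in replicate 1. At Rpl37a the site 5874 bp downstream had 111.2 and 117.2, and at Rpl23a the site 5593 bp downstream, at the promoter of Tlcd1, had 113.9 and 115.8. In an exon of Rps19bp1, 3430 bp downstream of its start, a site had 119.2 and 107.2. Rps19bp1 was therefore without a promoter peak but near a strong site.

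Paralogues other than Rpl7l1 had no promoter peak, and the sites near them lay farther away. Rpl3l, the form of Rpl3 made in heart and skeletal muscle, had its strongest peak 3317 bp upstream, at the promoter of Ndufb10, with 109.5 in replicate 1 and 103.4 in replicate 2 and a pooled signal of 212.4. The same peak was the strongest one within 10 kb of Rps2, whose start lies 6387 bp from it. Rps27l, a target of p53, had a peak of 101.6 and 88.7 at 7027 bp upstream, and Rpl22l1 one of 69.7 and 41.6 at 9127 bp downstream. Rpl23, which also binds Mdm2, had a weaker peak of 7.72 and 15.8 at 5182 bp downstream.

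No summit within 10 kb was found for 18 genes (20.5%), of which 13 were canonical. These 13 comprised 4 of 43 large subunit genes (Rpl9, Rpl15, Rpl34 and Rpl35a) and 9 of 30 small subunit genes (Rps3, Rps6, Rps7, Rps9, Rps14, Rps15a, Rps25, Rps27a and Rpsa). Within 10 kb, the share for the large subunit was thus 39 of 43 (90.7%, interval 77.9% to 97.4%). For the small subunit it was 21 of 30 (70.0%, interval 50.6% to 85.3%). These intervals overlap, and the difference was not tested. The 5 genes farthest from any summit were the paralogue Rpl39l (81.3 kb), Rpl35a (32.5 kb), the retrocopies Rpl36-ps4 and Rpl36a-ps1 (both 28.2 kb) and the paralogue Rpl10l (24.4 kb). Rps6, whose protein is phosphorylated by S6 kinases, was 22.7 kb from a peak of 13.6. Rps27a, which encodes a fusion of ubiquitin and protein S27a, was 21.8 kb from a peak of 7.91. Rpsa, also known as the laminin receptor, was 13.1 kb from a peak of 192.4. Rps14 was 12.2 kb from a peak of 33.1 by its gene record and, as above, 255 bp from one by its principal start.

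Over all 88 genes the median distance to the nearest optimal summit was 3.71 kb, against 9.03 kb for all protein-coding genes. More than 1 summit lay within 10 kb of 39 genes (44.3%), with 6 at Rpl38, 5 at Rplp2 and 4 at Rpl19, Rpl22 and Rps10. The same share over all protein-coding genes is not given here, so this count has no background. Ribosomal protein genes also lay in denser surroundings, with a mean of 0.795 other protein-coding 5' ends within 10 kb against 0.397. Among genes with no such neighbour, 28 of 40 (70.0%) had a summit within 10 kb, against 47.8% of all protein-coding genes without one. With 1 or 2 neighbours the shares were 36 of 42 (85.7%) and 60.9%.

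**Figure D3:**
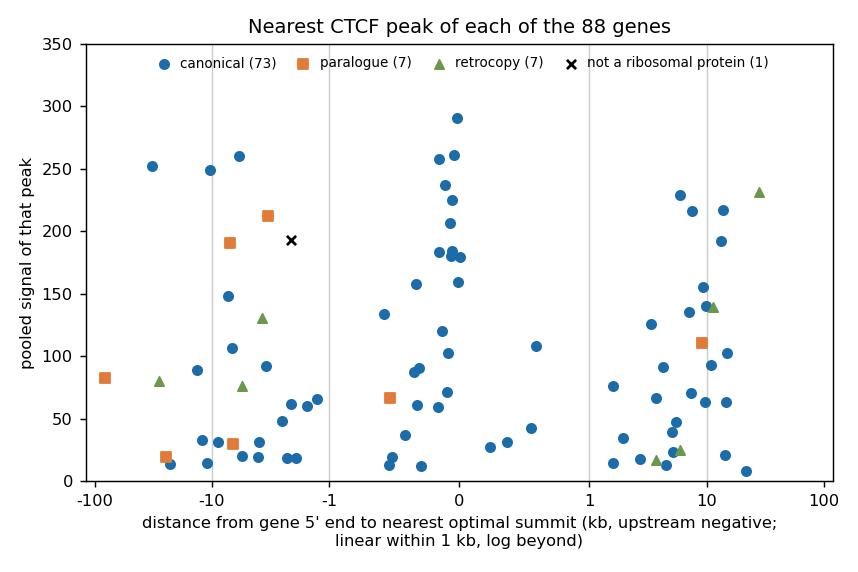
Pooled signal of the optimal peak nearest to each of the 88 genes against its distance from the 5' end in kb (negative is upstream; the axis is linear within 1 kb and logarithmic beyond), with canonical genes, paralogues, retrocopies and Rps19bp1 marked apart. The strongest nearest peak is that of Rpl5 (291.1) at the start, and the farthest is that of Rpl39l at 81.3 kb.

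The difference from all protein-coding genes depended on the window. Within 1 kb the 88 genes (33.0%) were near CpG-rich genes (32.3%) and mitochondrial ribosomal protein genes (30.8%). Within 0.25 kb the 3 shares were 18.2%, 18.7% and 19.2%. At 5 kb they were 56.8%, 50.3% and 53.8%, at 10 kb 79.5%, 63.1% and 70.5%, and at 20 kb 92.0%, 79.3% and 82.1%.

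**Figure D4:**
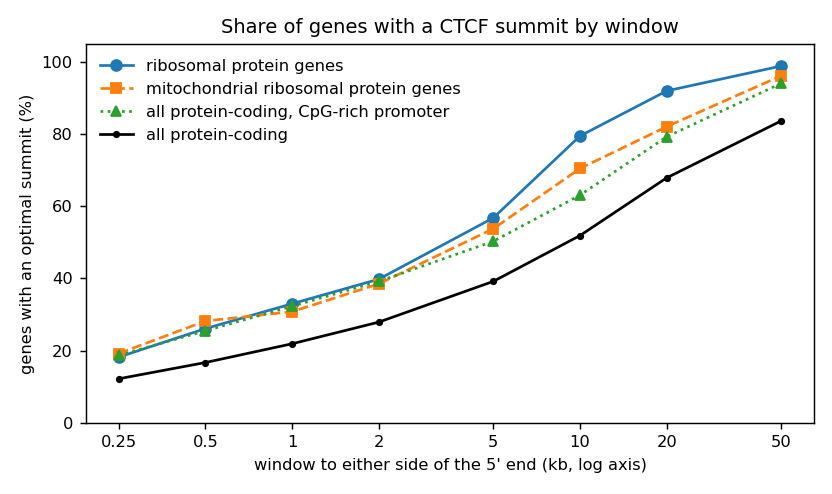
Share of genes (%) with an optimal summit within a window of the 5' end, against window size in kb on a log axis, for ribosomal protein genes, mitochondrial ribosomal protein genes, CpG-rich genes and all protein-coding genes. At 1 kb the first 3 lie between 30.8% and 33.0%, with all genes at 21.9%, and at 10 kb they lie between 63.1% and 79.5%, with all genes at 51.9%.

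Mitochondrial ribosomal protein genes, translation factors and ribosome assembly genes gave similar shares within 1 kb. The shares of aminoacyl-tRNA synthetases, S6 kinases and pseudogenes were lower. Of the mitochondrial ribosomal protein genes, 24 of 78 (30.8%) had a summit within 1 kb and 55 (70.5%) within 10 kb, and the median promoter signal was 81.1. Of the genes named as translation initiation or elongation factors, a name pattern that also takes kinases and methyltransferases of these factors, 22 of 67 (32.8%) and 44 (65.7%) did, with a median of 32.5. Of the genes for ribosome assembly and RNA polymerase I, 13 of 42 (31.0%) and 26 (61.9%) did, with a median of 117.7. Of the cytosolic aminoacyl-tRNA synthetases, 4 of 18 (Hars, Mars, Rars and Yars) and 9 of 18 did, and of the S6 kinases 1 of 10 (Rps6ka1) and 6 of 10. Of 7 ribosomal proteins or partners outside the naming rule, Rpl10, Rpl36a and Rps4x, all on the X chromosome, had a summit within 1 kb, and all but Rpl39 had one within 10 kb. Of 294 ribosomal protein pseudogenes, 8 (2.72%) had a summit within 1 kb and 75 (25.5%) within 10 kb. By median promoter signal, the 120.1 of the ribosomal protein genes stood next to the 117.7 of the assembly genes and well above the 32.5 of the translation factors, with no test made.

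**Figure D5:**
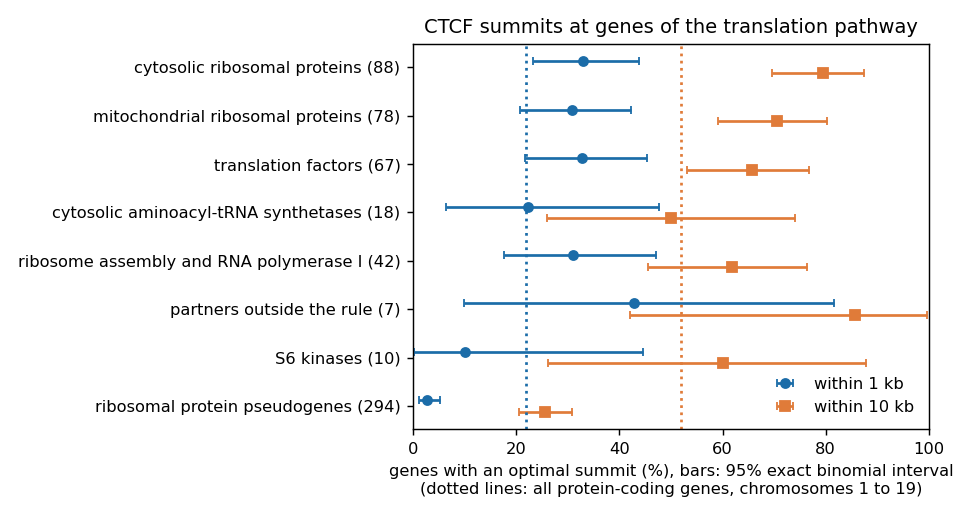
Share of genes (%) with an optimal summit within 1 kb (circles) and 10 kb (squares) of the 5' end for 8 lists of genes of protein synthesis, with 95% exact binomial intervals and, as dotted lines, the shares of all protein-coding genes (21.9% and 51.9%). The interval of the pseudogenes lies below the line at both distances, and those of the ribosomal protein genes lie above it, as do those of the mitochondrial ribosomal proteins and the translation factors at 10 kb.

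Short motifs in the promoters, which the naming rule did not use, were counted next. In the 300 bases around the 5' end, the ETS motif CCGGAAG, on either strand, occurred in 23 of 88 genes (26.1%), against 11.0% of all protein-coding genes. It was found in 10 of 29 genes with a promoter peak (34.5%) and in 13 of 59 without (22.0%), against 15.5% and 9.77% of all protein-coding genes with and without one. The YY1 motif AAGATGGC occurred in 6 genes (6.82% against 2.93%). The GC box GGGCGG (42.0% against 43.7%) and the TATA box TATAAA (9.09% against 12.7%) were near or below the background. The 4 motifs are different letters and were counted separately, whether or not matches overlapped, and a match describes only the letters. The annotated start was a cytosine followed by at least 4 pyrimidines in 8 genes (9.09% against 2.34%), and such a run began within 10 bp of the start in 35 (39.8% against 26.8%). With principal starts the first of these counts was 9 (10.2% against 2.31%). No measured transcript starts were used, so these counts and summit distances of a few bp rest on the annotation.

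A divergent gene start within 1 kb was present at 14 of 88 genes (15.9% against 11.1%), and 3 of these 14 had a promoter peak (21.4%, interval 4.66% to 50.8%). Without a divergent start, 26 of 74 had one (35.1%). Over all protein-coding genes the order was the opposite, with 28.2% with a divergent start and 21.1% without, and 3 genes are too few to tell the ribosomal protein genes apart from this. Small nucleolar RNA genes lay inside 28 of 88 genes. A promoter peak was found in 10 of these 28 (35.7%) and in 19 of the other 60 (31.7%). Small nucleolar RNA genes inside other protein-coding genes are not counted here, so these values have no background.

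Weaker peaks widened the set. The relaxed lists, which hold 300000 peaks for each library and include background, had a summit within 1 kb in both libraries for 54 of 88 genes (61.4%), against 45.5% of all protein-coding genes. Among canonical genes the count was 52 of 73 (71.2%). Of the 59 genes without an optimal promoter peak, 25 (42.4%, against 30.5% of all such genes) had one in both relaxed lists. Rpl35 was among them, with 9.90 in replicate 1 and 9.51 in replicate 2, as was Rps27a, with 5.01 and 6.46. Rps6 had 3.66 in replicate 1 and none in replicate 2, while Rpsa had none in replicate 1 and 7.16 in replicate 2, so neither gene was found in both libraries.

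Between the libraries, 28 of the 29 promoter peaks had a partner within 100 bp in both. On the log2 scale replicate 2 minus replicate 1 was -0.31 at the median of these 28 (range -1.57 to 0.50), against -0.22 over the 43232 optimal peaks with both values. The signals were not scaled to each other, so the SDs above include this shift. The conservative IDR list, which has 43221 peaks, also held 27 of the 29 peaks, that of Rpl7 not among them.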

How the data were processed

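CTCF ChIP-seq peak lists of 2 libraries from newborn mouse heart were used. Per the text files deposited beside them, relaxed lists were called by the authors on replicate 1, replicate 2 and both together, each against a control alignment not used here, on mm10, and the optimal (44533 peaks) and conservative lists were derived from these by IDR. For the aligner, the peak caller, their settings and the read depth, the answer is: not given in the sources used here. Each peak's deposited signal value was used as given by the authors, and a pooled signal is close to the summed signals of both replicates. Summits are the peak start plus the deposited offset in bp.

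Gene 5' ends are those of GENCODE M21 gene records on GRCm38 (mm10). Replicate values are those of the nearest relaxed summit within 100 bp of the optimal summit, with ties in distance settled by the stronger signal. The 14-base CTCF core was searched on both strands within 50 bp of summits with at most 2 mismatches. Shares have exact binomial (Clopper-Pearson) intervals at 95%, and no test was made, since there is 1 group. The core search and the window count were tested on simulated data and recovered all planted cases (500 and 300). Scripts ran in Python 3.11.15 with numpy 2.4.6, pandas 2.3.3 and scipy 1.17.1.

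The members and all gene lists were chosen with earlier results of these data known. The rule for named genes took every gene with a summit within 1 kb, the 12 strongest within 10 kb, the 5 farthest from a summit and a short list of genes with known roles. Of these, 4 enter all counts and are not reported here by name. Other genes, such as Rps2, Rpl35 and those of the other lists, were named after their values were seen. Alternatives were other windows, lists, single libraries, core limits and other 5' ends. Principal starts, RefSeq starts and canonical genes alone were added after seeing the data.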

Additional observations from a re-analysis of the deposited data

How the results depend on the processing

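The count of ribosomal protein genes with a summit within 1 kb (29, 33.0% against 21.9% of all protein-coding genes) varied with the setting. Windows of 0.5 and 2 kb gave 23 (26.1% against 16.7%) and 35 (39.8% against 27.9%). The conservative list gave 30 (34.1% against 20.9%). Without replicate 1 the count was 31 (35.2% against 22.3%), and without replicate 2 it was 31 (35.2% against 21.5%). Any transcript start gave 33 (37.5% against 29.2%), nearer to the background than in the main count. Principal starts gave 30 (34.1% against 21.9%), and canonical genes alone 28 of 73 (38.4%). RefSeq starts gave 18 of 62 genes (29.0%), where fewer genes were matched. Within 10 kb the count (70) was between 49 of 62 genes with RefSeq starts and 87 of 88 with a 50 kb window. At 50 kb the shares were 98.9% and, for all protein-coding genes, 83.7%. With any transcript start the shares within 10 kb were 80.7% and 61.0%. The genes were not all the same: either library alone added Rpl35 and lost Rpl29. The median promoter signal (120.1) was 53.8 without replicate 1 (all protein-coding genes 21.2) and 52.8 without replicate 2 (all 25.3), since a single library has a lower scale than both together. It was 157.6 within 0.5 kb and 90.7 within 2 kb. The count of promoter peaks with a core (19) was 7 with at most 1 mismatch (24.1% against 20.3% of all protein-coding genes with a promoter peak) and 25 with at most 3. No paired analysis was possible because both libraries belong to 1 group. Peak lists give no read counts, so what depth limits at weak peaks such as that of Rpl29 is unknown.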

Other observations

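A core did not always come with a peak. With principal starts, the 300 bases around the start held a core with at most 2 mismatches in 14 of 88 genes (15.9%), against 16.3% of all protein-coding genes. Of these 14, 10 (71.4%) had an optimal summit within 1 kb, against 42.5% of all protein-coding genes with such a core, and among canonical genes 10 of 12 (83.3%) did. The 4 without were Rpl35, Rps21, Rpl9-ps1 and Rpl9-ps6. Rpl35, whose promoter is in neither the main count nor the principal count, passed in the conservative list and in either library alone. Rps21 had instead the strong distal peak 5917 bp upstream.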
